A study of Mus musculus with 12 samples.

Results

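The duodenum of mice that had eaten a high-fat diet and then received pregnenolone 16α-carbonitrile (PCN) was compared with that of mice kept on chow. The comparison asks which genes stood above, at or below the chow level after PCN. It uses 6 of the 12 RNA libraries of the series, chosen by their group labels alone: Chow 8, Chow 17 and Chow 19 against HFD PCN 5, HFD PCN 11 and HFD PCN 27. All were C57BL/6N mice, aged 6 weeks when the diets began, and the diets lasted 18 weeks. The HFD PCN mice ate the high-fat diet and were then injected into the peritoneum with PCN, 50 mg/kg once a day on 4 days. The Chow mice ate chow, and their labels give no treatment. The other 6 libraries, HFD (4, 30 and 38, the diet with no treatment given) and HFD Vehicle (23, 50 and 55, the diet with injections of 30% DMSO in corn oil), are given only as levels beside the comparison. Diet, injection and PCN differ together between Chow and HFD PCN, and the counts of the groups stand in 2 tables deposited separately, so these differences cannot be told apart. The labels number the libraries singly without saying that they came from separate animals, so p-values may measure only the spread between these samples.

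Both tables list 26121 genes, and 15300 of them had enough counts in the 6 libraries to be tested. Totals ran from 6421217 to 14823031 counts in Chow and from 9377465 to 20684369 in HFD PCN. Levels are CPM, each library's counts scaled to a common total, after TMM scaling, which corrects for a few very abundant genes, and are given in the library order above. They are not scaled to gene length, so they compare libraries and not genes. Libraries of 1 group correlated at 0.969 to 0.981 (log2 CPM, across genes) and libraries of different groups at 0.958 to 0.975. Genes that resemble ribosomal RNA took 0.909% to 2.67% of the counts in Chow and 0.361% to 0.850% in HFD PCN, with no overlap. With such genes and the mitochondrial genes left out, 51 genes were called. That step removes only those genes. Whether the difference in share bears on the calls of other genes was not tested. The extraction protocol names liver, whereas the tissue label is duodenum. The brush border gene Vil1 stood at 1789, 1803 and 1789 CPM in Chow and 1916, 1673 and 2113 CPM in HFD PCN, while the hepatocyte gene Serpina1a was at 0 in all 6 libraries. The hepatocyte marker list summed to 759 to 827 CPM in Chow and 1063 to 1151 CPM in HFD PCN, nearly all of it from Cps1, which enterocytes also make.

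PCN activates the pregnane X receptor of rodents (PXR, encoded by Nr1i2), which is a nuclear receptor of liver and gut that binds foreign compounds and bile acids. With its partner RXR it switches on genes for drug handling: cytochrome P450 enzymes that oxidise, carboxylesterases that hydrolyse, transferases that attach glutathione, glucuronic acid or sulfate, and pumps that export the products. In the small intestine these proteins sit in absorptive enterocytes and meet drugs and food compounds before the blood does.

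After PCN, the genes above the chow level included the drug enzymes Cyp3a11, Ces2a and Gstm3 and the drug pump Abcb1a. Those below it included the antibacterial lectin Reg3g and the immune genes Apol10a, Igtp and Zbp1. Most tested genes were within 2-fold of chow. A gene was called at an adjusted p under 0.05 in edgeR's quasi-likelihood test with Benjamini-Hochberg adjustment over the 15300 genes. Of these, 52 were called (0.340%), 40 above chow (0.261%) and 12 below (0.0784%). An uncalled gene counted as being at the chow level when the 95% interval of its log2 difference lay within 2-fold either way. That held for 11107 genes (72.6%), any of which could still differ from chow by less than 2-fold. The remaining 4141 (27.1%) could not be placed. Log2 differences are HFD PCN minus Chow, given ± SE with 3 libraries per group, and their median over all tested genes was -0.01. In each of the 52 called genes the HFD PCN libraries lay outside the range of the Chow libraries. Over all tested genes, HFD PCN lay above Chow without overlap in 9.93% and below it in 7.75%.

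HFD PCN also lay above each of the other 9 libraries in 24 of the 40 genes called above chow, against 1.95% of all tested genes. It lay below each of the other 9 in 2 of the 12 genes called below chow, against 1.31%. These all-gene shares are low bases, because every called gene already lay outside the Chow range. Where HFD PCN lay above Chow without overlap, it lay above all the other 9 in 299 of 1519 tested genes. Where it lay below Chow without overlap, it lay below all the other 9 in 200 of 1186, a share like that of the 12. HFD and HFD Vehicle both lay below every Chow library in 7 of the 12 genes called below, against 2.56% of all tested genes. HFD Vehicle, taken without HFD, lay below every Chow library in 10 of the 12, against 1206 of the 15300 tested. In the other 2 it overlapped Chow. Of the 40 called above, HFD and HFD Vehicle both lay above every Chow library in 4, against 313 of the 15300 tested, and both lay below in 5. These groups were set against the same 3 Chow libraries as HFD PCN. HFD PCN 27 was the PCN library nearest to chow in 32 of the 40 and in 4 of the 12, and was the lowest PCN library in 37.3% of all tested genes. The number of calls depended on single libraries, and was 9 without Chow 8, 31 without Chow 17, 9 without Chow 19, 22 without HFD PCN 5, 8 without HFD PCN 11 and 349 without HFD PCN 27. Each of the 52 kept its direction under all 16 alternatives tried. With no overlap between the groups, that could hardly come out otherwise. Ces2a, Ces1d, Abca1 and Aqp8 were the 4 genes called under every alternative.

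**Figure D1:**
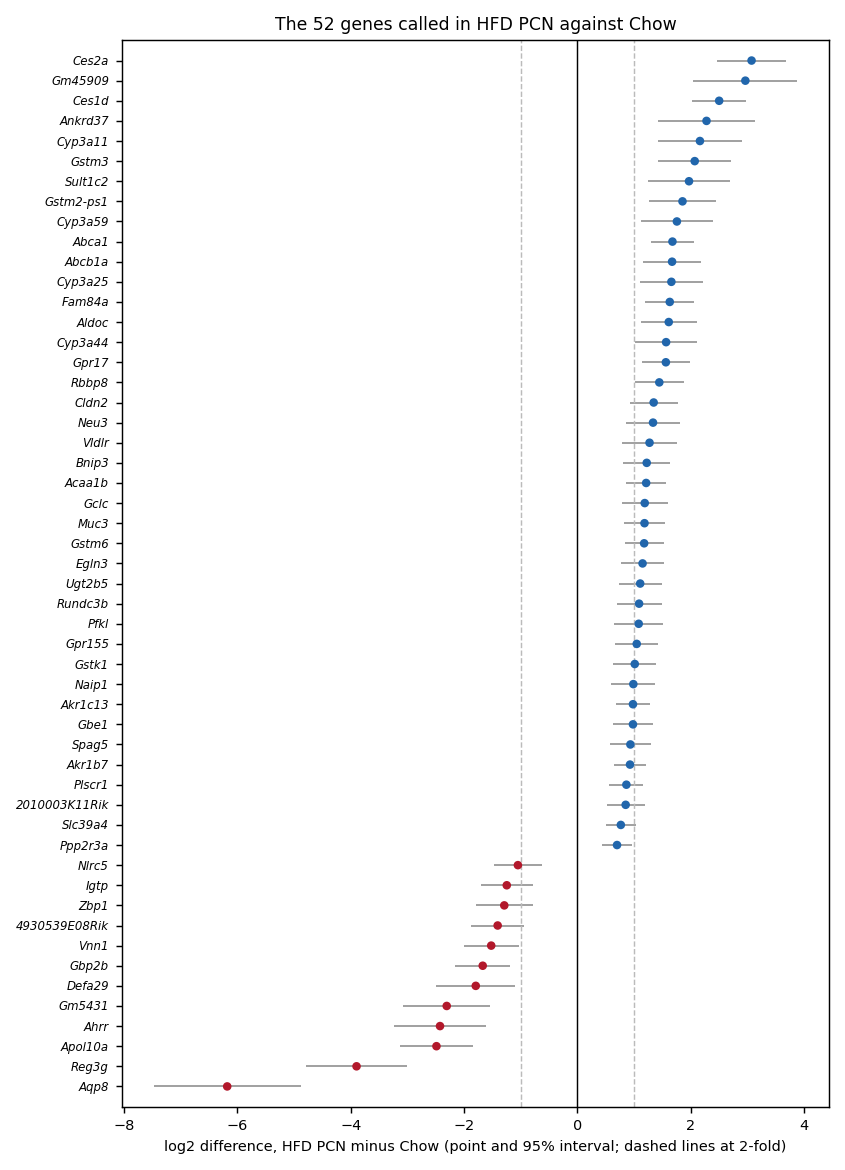
The 52 genes called in HFD PCN against Chow, ordered by their log2 difference (horizontal axis, points with 95% intervals, dashed lines at 2-fold); blue marks the 40 genes above chow and red the 12 below. Gm45909 and Ces2a stand at the top at 2.96 and 3.07, and Aqp8 at the bottom at -6.18.

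Genes of drug oxidation and hydrolysis held the largest called rise, that of Ces2a. The list of PXR-regulated P450s, carboxylesterases and their helpers held 26 tested genes, of which 6 were called above chow and none below, against 0.261% and 0.0784% of all genes. A further 7 were within 2-fold of chow and 13 were not placed. The median log2 difference was 1.02, against -0.01 over all tested genes, and 25 of the 26 were positive, against 48.8% of all genes. HFD PCN 27 was the lowest PCN library in 22 of the 26 genes.

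Ces2a, a carboxylesterase that splits ester drugs and glycerides (chr8:104734003-104741634, GRCm38), stood at 150.3, 160.1 and 148 CPM in Chow and 1804, 1309 and 799 CPM in HFD PCN. The Chow libraries lay close together, and the lowest PCN library was several times higher. HFD stood at 70.03, 51.4 and 111 CPM and HFD Vehicle at 102, 67.8 and 104 CPM, each below all 3 Chow libraries. The difference from chow was 8.42-fold (log2 difference 3.07 ± 0.27, adjusted p = 0.00311).

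Cyp3a11, the main PXR-responsive P450 of mouse gut and liver (chr5:145854426-145879964), stood at 2319, 1846 and 1530.2 CPM in Chow and 12006, 9184 and 4677 CPM in HFD PCN. Its HFD libraries had 395, 752 and 537 CPM and its HFD Vehicle libraries 165, 519.7 and 1128 CPM. Every HFD and HFD Vehicle library was thus below chow and every PCN library above it, with HFD PCN 27 nearest to chow. The difference from chow was 4.48-fold (log2 difference 2.16 ± 0.33, adjusted p = 0.0361).

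3 neighbours of Cyp3a11 on chromosome 5 were called in the same direction. Cyp3a25 (chr5:145977194-146009618) stood at 328, 274 and 356 CPM in Chow and 1262, 1169 and 630.1 CPM in HFD PCN (log2 difference 1.66 ± 0.25, adjusted p = 0.0284). Cyp3a59 (chr5:146079257-146113287) had 2.50, 2.13 and 2.12 CPM in Chow and 9.14, 8.72 and 5.01 CPM in HFD PCN (log2 difference 1.76 ± 0.29, adjusted p = 0.0303). Cyp3a44 (chr5:145773983-145805874) had 3.22, 4.12 and 2.85 CPM in Chow and 12.6, 9.28 and 8.05 CPM in HFD PCN (log2 difference 1.56 ± 0.25, adjusted p = 0.0284). In none of the 3 did the groups overlap. These enzymes are close copies whose reads can be assigned to either gene, which makes each separate value uncertain. The calls of Cyp3a11, Cyp3a25 and Cyp3a59 were each lost when any library but HFD PCN 27 was left out, with adjusted p over all alternatives of up to 0.391, 0.122 and 0.522. That of Cyp3a44 was lost likewise except without Chow 17 (adjusted p of up to 0.68). Cyp3a13, an intestinal member of the family, had 1552, 1352 and 1347 CPM in Chow and 2589, 1917 and 1950.3 CPM in HFD PCN. Its libraries did not overlap either, but its 95% interval of 0.21 to 0.95 placed it within 2-fold of chow.

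The start regions of the called Cyp3a genes and of Ces2a are shown because these genes moved together and because PXR with RXR is known to bind pairs of the half-site AGGTCA or close variants. The sequences are RefSeq's, GRCm38.p6, from 250 bases before to 50 after the annotated start, 5′ to 3′ on the gene's strand, and capitals mark AGGTCA on either strand.
Cyp3a11 (chr5:145879805-145880104, minus strand): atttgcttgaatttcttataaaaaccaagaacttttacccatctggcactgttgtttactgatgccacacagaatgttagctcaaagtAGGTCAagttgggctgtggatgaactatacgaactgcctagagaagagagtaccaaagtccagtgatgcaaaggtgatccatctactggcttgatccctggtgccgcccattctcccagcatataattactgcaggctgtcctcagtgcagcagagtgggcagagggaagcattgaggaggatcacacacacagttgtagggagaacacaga
Cyp3a44 (chr5:145805825-145806124, minus strand): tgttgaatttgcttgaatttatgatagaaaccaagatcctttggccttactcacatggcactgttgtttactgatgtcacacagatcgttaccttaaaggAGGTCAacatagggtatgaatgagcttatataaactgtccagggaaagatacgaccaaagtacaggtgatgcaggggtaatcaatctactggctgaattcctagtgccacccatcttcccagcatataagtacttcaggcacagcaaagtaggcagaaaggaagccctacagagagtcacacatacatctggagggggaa
Cyp3a25 (chr5:146009568-146009867, minus strand): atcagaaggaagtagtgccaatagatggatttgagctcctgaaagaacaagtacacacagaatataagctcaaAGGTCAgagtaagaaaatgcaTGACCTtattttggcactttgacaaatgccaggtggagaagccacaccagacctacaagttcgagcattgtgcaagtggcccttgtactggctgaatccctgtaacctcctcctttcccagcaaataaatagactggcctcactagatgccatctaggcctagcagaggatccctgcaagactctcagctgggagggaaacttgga
Cyp3a59 (chr5:146079008-146079307, plus strand): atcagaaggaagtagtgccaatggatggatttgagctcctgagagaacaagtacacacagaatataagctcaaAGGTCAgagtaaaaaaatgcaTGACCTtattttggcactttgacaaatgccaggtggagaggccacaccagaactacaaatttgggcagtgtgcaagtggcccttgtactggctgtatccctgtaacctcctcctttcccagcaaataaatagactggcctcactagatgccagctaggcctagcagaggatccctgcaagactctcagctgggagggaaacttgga
Ces2a (chr8:104733753-104734052, plus strand): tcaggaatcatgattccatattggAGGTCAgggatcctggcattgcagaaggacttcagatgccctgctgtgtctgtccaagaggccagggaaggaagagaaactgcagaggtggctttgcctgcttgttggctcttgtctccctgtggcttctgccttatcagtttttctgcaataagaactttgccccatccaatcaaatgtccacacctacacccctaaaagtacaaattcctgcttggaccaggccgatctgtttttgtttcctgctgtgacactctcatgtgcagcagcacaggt
Each of the 5 windows holds AGGTCA at least once. Its first base stands at -162 from the start in Cyp3a11, at -150 in Cyp3a44 and at -226 in Ces2a. Cyp3a25 and Cyp3a59 hold it on both strands, at -177 as spelled and at -156 as its reverse complement. Their windows have 289 of 300 bases in common (96.3%, without gaps), so they are not independent examples. Over all 32851 windows of this length 16.3% hold AGGTCA. By gene it stands in 12 of the 32 genes called above chow that have a window, in 2 of the 7 called below, and in 15.1% of the 10634 tested genes with one. The variant AGTTCA stands in 7 of the 32, 1 of the 7 and 12.1% of tested genes. 2 arrangements of such half-sites, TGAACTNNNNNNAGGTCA and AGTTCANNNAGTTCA, matched none of the windows as spelled. A match describes the sequence only and does not show binding.

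Ces1d, a carboxylesterase that hydrolyses lipid esters in liver and fat (chr8:93166068-93197838), stood at 7.27, 10.5 and 14.9 CPM in Chow and 67.6, 62.2 and 61.1 CPM in HFD PCN, a 5.66-fold difference (log2 difference 2.50 ± 0.22, adjusted p = 0.00285). Unlike Ces2a it was also high with vehicle, at 53.8, 39.1 and 40.9 CPM, while HFD had 11.2, 13.1 and 15.5 CPM and overlapped Chow. Gm45909 (chr8:93190328-93191358), a predicted gene inside the span of Ces1d, had 0.238, 0.426 and 1.27 CPM in Chow and 5.83, 6.56 and 5.60 CPM in HFD PCN (log2 difference 2.96 ± 0.42, adjusted p = 0.0174). The strand setting of the counting is not given in the sources used here, so reads of this pair may not be separable. Among the relatives, Ces1e (log2 difference 0.00 ± 0.13) and Ces1f (0.05 ± 0.17) were within 2-fold of chow. Ces1g, an enterocyte triglyceride hydrolase, was the single negative member of the list and was not called. It had 20.96, 17.2 and 31.02 CPM in Chow and 13.2, 9.70 and 20.8 CPM in HFD PCN, with overlap.

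Some of the largest differences in the list could not be placed, and in these genes the PCN libraries differed widely among themselves. Cyp2c29, a P450 of the 2C family that oxidises drugs and fatty acids, had 113, 119.6 and 156 CPM in Chow and 1526, 917 and 308 CPM in HFD PCN. No library overlapped, but HFD PCN 5 and HFD PCN 27 were further apart than HFD PCN 27 and Chow (log2 difference 2.80 ± 0.62, adjusted p = 0.213). In HFD and HFD Vehicle it stood at 3.59, 7.39 and 10.3 and 17.5, 24.8 and 21.7 CPM, far below chow. Cyp2c55 had 69.4, 56.1 and 55.00 CPM in Chow, 6.51, 7.39 and 7.09 CPM in HFD, 3.00, 5.71 and 7.55 CPM in HFD Vehicle and 619, 426 and 99.5 CPM in HFD PCN (log2 difference 2.65 ± 0.72, adjusted p = 0.292). HFD and HFD Vehicle again lay below all Chow libraries, and HFD PCN 27 was again the lowest PCN library. Cyp2c66 had 134, 135 and 129 CPM in Chow and 690.2, 556 and 277 CPM in HFD PCN (log2 difference 1.92 ± 0.30, adjusted p = 0.0565). Ephx1, microsomal epoxide hydrolase, had 27.4, 27.4 and 14.1 CPM in Chow and 233, 205 and 105 CPM in HFD PCN (log2 difference 2.98 ± 0.41, adjusted p = 0.0624). Both had no overlap and missed the threshold. Without HFD PCN 27, 16 members of the list were called above chow.

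Electron donors of the P450s were not called. Por, which passes electrons to all microsomal P450s, stood at 259, 246 and 224 CPM in Chow and 444, 412 and 357 CPM in HFD PCN, without overlap and short of the threshold (log2 difference 0.71 ± 0.14, adjusted p = 0.0565). Cyb5a, cytochrome b5, had 204, 197 and 221 CPM in Chow and 668, 509 and 315 CPM in HFD PCN (log2 difference 1.24 ± 0.24, adjusted p = 0.0714). Cyp2b10, best known as a target of the related receptor CAR, had 434, 345 and 498 CPM in Chow and 813, 649 and 491 CPM in HFD PCN, where HFD PCN 27 lay within the Chow range (log2 difference 0.59 ± 0.20, adjusted p = 0.268). The median of the list ranged from 0.72 to 1.25 over the alternatives, and 2 to 16 members were called above chow. Of the 25 tested enterocyte markers 21 were positive and 4 negative, with a median of 0.23. Cyp3a11 was the only one called, against 0.261% of all tested genes called above. An unadjusted p under 0.05 was found for 7 higher and 3 lower markers, against 11.8% of all tested genes either way. Over the alternatives 14 to 22 were positive, and 0 to 4 were called higher and 0 to 2 lower. The list's sum without Cyp3a11 was 45051 to 55512 CPM in Chow and 56185 to 60628 CPM in HFD PCN, a narrow gap. In HFD it was 30190 to 62011 CPM. No marker was at 0 in all libraries. Its part in these results was not tested. In bulk RNA, more cells of a type and more RNA per cell cannot be told apart.

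Conjugating enzymes stood above chow in part. Of 40 tested phase II genes, 5 were called above chow, against 0.261% of all tested genes, and none below. A further 21 were within 2-fold, against 72.6% of all tested genes, and 14 were not placed. The median log2 difference was 0.40, and 37 of the 40 were positive, against 48.8% of all tested genes. Gstm3, a glutathione transferase (chr3:107963696-107969283), had 190.1, 128 and 169.6 CPM in Chow and 936, 708 and 432 CPM in HFD PCN, a 4.20-fold difference (log2 difference 2.07 ± 0.28, adjusted p = 0.0284). The highest Chow library was less than the lowest PCN library, and HFD at 113, 117 and 133 CPM overlapped Chow. Gstm6 had 33.6, 33.7 and 27.9 CPM in Chow and 84.6, 71.9 and 60.6 CPM in HFD PCN (log2 difference 1.18 ± 0.16, adjusted p = 0.0174). Gstk1, a mitochondrial and peroxisomal glutathione transferase, had 24.7, 28.8 and 25.2 CPM in Chow and 67.4, 42.6 and 50.4 CPM in HFD PCN (log2 difference 1.01 ± 0.17, adjusted p = 0.0361). In both genes every PCN library was above every Chow library. Gstm1 at 85.9, 73.9 and 72.1 CPM in Chow and 525, 372 and 189 CPM in HFD PCN was not called (log2 difference 2.21 ± 0.36, adjusted p = 0.0797). Gstm genes and the pseudogene Gstm2-ps1, itself called at 1.85 ± 0.26, are near copies, and their separate values are uncertain.

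Ugt2b5, which attaches glucuronic acid, had 32.3, 30.1 and 24.04 CPM in Chow and 60.6, 74.8 and 52.2 CPM in HFD PCN (log2 difference 1.11 ± 0.17, adjusted p = 0.0255). Sult1c2, a sulfotransferase, had 1.79, 2.56 and 1.76 CPM in Chow, 5.39, 7.62 and 2.06 CPM in HFD, 0.856, 1.76 and 9.54 CPM in HFD Vehicle and 7.64, 10.96 and 5.01 CPM in HFD PCN (log2 difference 1.97 ± 0.33, adjusted p = 0.0313). All PCN libraries of both genes were above all Chow libraries, but HFD 4, HFD 30 and HFD Vehicle 55 lay within the PCN range of Sult1c2. Ugt1a1, the bilirubin-conjugating enzyme, had 101, 96.1 and 116 CPM in Chow and 187, 167 and 100.4 CPM in HFD PCN. HFD PCN 27 lay in the Chow range, and the interval of 0.06 to 0.98 kept the gene within 2-fold. The calls of Gstm3, Gstm6, Gstk1, Ugt2b5 and Sult1c2 were each lost without Chow 8, Chow 19 or HFD PCN 11, with adjusted p over all alternatives of up to 0.139, 0.391, 0.68, 0.707 and 0.785. Without Chow 17 those of all but Gstm6 were lost, and without HFD PCN 5 those of Gstk1, Ugt2b5 and Sult1c2.

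Among 18 tested drug and bile acid transporters 1 was called above chow, against 0.261% of all tested genes. Another 13 were within 2-fold of chow, near the 72.6% of all tested genes, and 4 were not placed, with a median of 0.07. The called gene was Abcb1a, the P-glycoprotein pump that returns drugs to the gut lumen (chr5:8660077-8748575). It had 278, 283 and 370.5 CPM in Chow and 1239, 1105 and 661 CPM in HFD PCN, a 3.18-fold difference (log2 difference 1.67 ± 0.23, adjusted p = 0.0176). HFD at 147, 202 and 378 and HFD Vehicle at 332, 389 and 459 CPM overlapped Chow and lay below every PCN library. The call was lost when any library but HFD PCN 27 was left out (adjusted p over all alternatives of up to 0.11). Abcc2, which exports conjugates, had 980.0, 847 and 1038 CPM in Chow and 2074, 2093 and 1284 CPM in HFD PCN, without overlap but not called (log2 difference 0.91 ± 0.20, adjusted p = 0.0903). Abcc3 (log2 difference -0.01 ± 0.14) and Abcg2 (-0.22 ± 0.12) were within 2-fold of chow.

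The receptors themselves stood within 2-fold of chow. Nr1i2 (PXR) had 167, 114 and 157 CPM in Chow, 154, 218 and 171 CPM in HFD, 167, 172 and 148 CPM in HFD Vehicle and 164, 200.4 and 169 CPM in HFD PCN. The groups overlapped, and the 95% interval of the log2 difference was -0.09 to 0.62. Nr1i3 (CAR) at 0.21 ± 0.17 and Rxra, a form of the partner RXR, at 0.06 ± 0.12 were also within 2-fold. Of 23 tested nuclear receptors and co-regulators, 20 were within 2-fold of chow, against 72.6% of all tested genes. The other 3 were not placed and edgeR called none, with a median of 0.06. An unadjusted p under 0.05 was found for 2, against 11.8% of all tested genes, and the alternatives called 0 to 1.

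**Figure D2:**
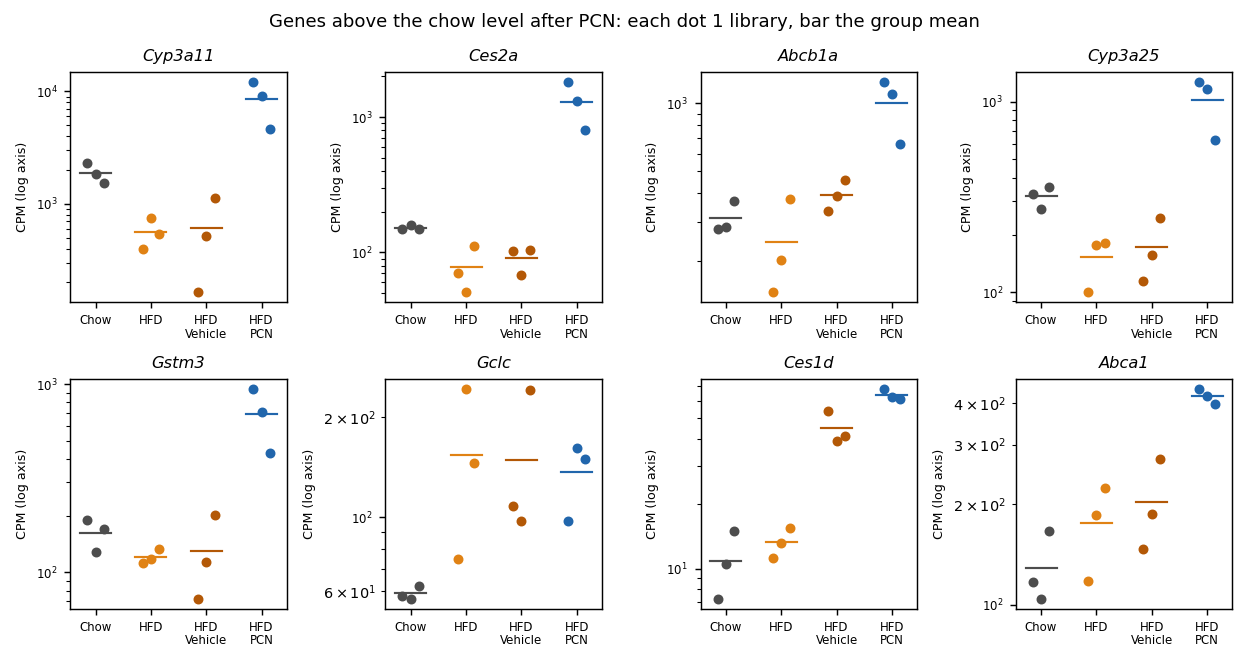
CPM (log axis) of 8 genes called above chow, in each library of the 4 groups (dots, with a bar at the group mean). For Cyp3a11, Ces2a and Cyp3a25 the HFD and HFD Vehicle dots lie below the Chow dots and the PCN dots above them; for Gclc all 3 high-fat groups lie above Chow, and for Ces1d HFD Vehicle and HFD PCN do.

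Other stress and redox genes were within 2-fold of chow about as often as all tested genes. Of 23 NRF2 targets and glutathione genes, 17 were within 2-fold, against 72.6% of all tested genes. Of the 23, 1 was called above chow, Gclc, against 0.261% of all tested genes. The list's median was 0.22. Gclc, the catalytic subunit of the enzyme that limits glutathione synthesis, had 58.01, 56.98 and 62.3 CPM in Chow and 97.5, 162 and 149.9 CPM in HFD PCN (log2 difference 1.19 ± 0.18, adjusted p = 0.0255). HFD at 74.7, 242 and 146 CPM and HFD Vehicle at 108, 97.4 and 241 CPM were above all Chow libraries as well, and reached above the PCN libraries. Nqo1, the textbook NRF2 target, was within 2-fold of chow (log2 difference 0.15 ± 0.16). The aldo-keto reductases Akr1b7 and Akr1c13, which reduce reactive carbonyls and steroids and were chosen after their values were seen, were also called. Akr1b7 had 123, 132 and 124 CPM in Chow and 225, 237 and 268 CPM in HFD PCN (log2 difference 0.93 ± 0.13, adjusted p = 0.0174), and Akr1c13 had 136, 146 and 137 and 320.1, 281 and 236 CPM (log2 difference 0.98 ± 0.14, adjusted p = 0.0174). The call of Gclc was lost without any library but HFD PCN 5 or HFD PCN 27 (adjusted p over all alternatives of up to 0.692), and those of Akr1b7 and Akr1c13 without Chow 8, Chow 19 or HFD PCN 11 (adjusted p of up to 0.878 and 0.391), with Akr1c13 also lost without HFD PCN 5.

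Among the lipid genes Abca1 was called above chow. It encodes the pump that loads cholesterol onto HDL (chr4:53030787-53159895) and stood at 117, 104 and 166 CPM in Chow and 438, 419.6 and 398 CPM in HFD PCN. The PCN libraries were close together and all above Chow, a 3.20-fold difference (log2 difference 1.68 ± 0.17, adjusted p = 0.00311). HFD at 118, 186 and 224 and HFD Vehicle at 147, 187 and 273 CPM lay from within to above the Chow range and below every PCN library. Of 14 tested sterol absorption and LXR target genes, 1 was called above, against 0.261% of all tested genes. Another 11 were within 2-fold, against 72.6% of all tested genes. Among the 11 were the cholesterol uptake protein Npc1l1 (log2 difference 0.17 ± 0.14) and the sterol exporters Abcg5 (0.44 ± 0.14) and Abcg8 (0.35 ± 0.12). The list's median was 0.28.

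No cholesterol synthesis gene was called, though nearly all differences were positive. Of 26 tested genes, 25 were positive, against 48.8% of all tested genes, with a median log2 difference of 0.47. Of these 26, 18 were within 2-fold of chow, against 72.6% of all tested genes, and 8 were not placed. Hmgcs1, an early enzyme of the pathway, had 99.3, 114 and 134 CPM in Chow and 182, 208 and 152 CPM in HFD PCN (log2 difference 0.63 ± 0.16, adjusted p = 0.145). Its groups did not overlap and its interval stayed within 2-fold. An unadjusted p under 0.05 was found for 15 of the 26 genes, against 11.8% of all tested genes. Over the alternatives the list's median ranged from 0.35 to 0.56, and 0 to 7 genes were called, against 0 by edgeR here.

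Most genes of fat uptake were within 2-fold of chow, and those of fat oxidation about as often as all tested genes. Of 23 tested genes of fat uptake and chylomicrons 21 were within 2-fold, against 72.6% of all tested genes, and edgeR called none (median 0.18). An unadjusted p under 0.05 was found for 4 higher and 1 lower gene, against 11.8% of all tested genes either way. The alternatives called 0 to 2 higher. Of 35 tested PPARα targets and fat oxidation genes, 25 were within 2-fold, close to the all-gene share (median 0.19). Among the 35, 1 was called above and 1 below, against 0.261% and 0.0784% of all tested genes. Acaa1b, a peroxisomal thiolase, had 13.9, 11.5 and 13.5 CPM in Chow and 35.4, 29.03 and 27.1 CPM in HFD PCN (log2 difference 1.21 ± 0.16, adjusted p = 0.0174). Vnn1, pantetheinase, a PPARα target that recycles vitamin B5, went the other way: 33.6, 27.3 and 49.3 CPM in Chow and 14.97, 10.5 and 13.5 CPM in HFD PCN (log2 difference -1.52 ± 0.22, adjusted p = 0.0219). Its HFD libraries had 7.63, 12.1 and 16.7 and its HFD Vehicle libraries 4.28, 9.82 and 11.5 CPM, so all 3 high-fat groups lay below chow. Cpt1a, which admits fatty acids to mitochondria, stood within 2-fold (log2 difference 0.47 ± 0.14), as did Pdk4 (0.20 ± 0.21). The calls of Acaa1b and Vnn1 were lost without Chow 8, Chow 19, HFD PCN 5 or HFD PCN 11 (adjusted p over all alternatives of up to 0.161 and 0.235).

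Genes known to be induced under low oxygen were also among those called above chow. Their list was drawn up after the values were seen. Of its 36 tested genes 7 were called above chow, against 0.261% of all tested genes, and none below, against 0.0784%. Because the list was chosen with these calls known, setting the shares side by side is no test. Of the other genes of the list, 20 were within 2-fold and 9 were not placed, with a list median of 0.50. Aldoc, a glycolytic aldolase (chr11:78322968-78327781), had 12.03, 10.4 and 13.2 CPM in Chow and 51.1, 29.03 and 30.5 CPM in HFD PCN (log2 difference 1.61 ± 0.22, adjusted p = 0.0174). HFD at 6.28, 10.9 and 12.3 and HFD Vehicle at 8.49, 15.5 and 9.54 CPM lay below the PCN libraries. Egln3, an oxygen-sensing prolyl hydroxylase, had 22.9, 27.4 and 18.6 CPM in Chow and 58.1, 52.5 and 42.9 CPM in HFD PCN (log2 difference 1.15 ± 0.18, adjusted p = 0.0248). HFD 30 at the top of its group, 23.3, 43.05 and 35.3 CPM, reached the lowest PCN library. Bnip3, a mitophagy receptor, had 8.34, 9.38 and 12.4 CPM in Chow and 28.1, 22.3 and 21.5 CPM in HFD PCN (log2 difference 1.22 ± 0.19, adjusted p = 0.0255). Ankrd37, a hypoxia-induced ankyrin protein, had 0.953, 2.56 and 0.971 CPM in Chow, 3.14, 4.34 and 4.34 CPM in HFD and 5.83, 9.21 and 5.60 CPM in HFD PCN (log2 difference 2.28 ± 0.39, adjusted p = 0.0408), with low counts in every group.

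The others called were Vldlr, a lipoprotein receptor, at 1.27 ± 0.22 on the log2 scale, Pfkl, the liver-type phosphofructokinase, at 1.08 ± 0.19, and Gbe1, the glycogen branching enzyme, at 0.98 ± 0.16. For Gbe1 the 3 Chow libraries had 10.5, 10.1 and 12.7 CPM, HFD 18.2, 21.1 and 18.8 CPM, HFD Vehicle 13.8, 18.5 and 20.9 CPM and HFD PCN 22.7, 23.5 and 20.6 CPM. All high-fat libraries of Gbe1 lay above chow, and the same was so for Pfkl. Pdk1, which holds pyruvate back from mitochondria, had 24.1, 23.9 and 31.02 CPM in Chow and 48.8, 43.9 and 45.6 CPM in HFD PCN and just missed the threshold (log2 difference 0.78 ± 0.14, adjusted p = 0.0518). Vegfa, the blood vessel growth factor, was within 2-fold of chow (-0.17 ± 0.15), as was Hk2 (-0.10 ± 0.18). The calls of Aldoc, Egln3, Bnip3 and Ankrd37 reached adjusted p of up to 0.0784, 0.133, 0.182 and 0.202 over the alternatives, and without Chow 8 or without Chow 19 none of the list was called. Over all alternatives 0 to 14 genes were called and the median ranged from 0.39 to 0.60. The core of the hypoxia response element, ACGTG, stands in the start windows of Aldoc, Ankrd37, Bnip3 and Egln3. The windows of Gbe1, Pfkl and Vldlr, which were also called, lack it. It stands in 8 of the 32 genes called above chow that have a window, in 2 of the 7 called below and in 28.3% of tested genes. It was thus no more frequent among the genes called above chow than among tested genes.

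Iron and metal genes spread widely. Of 18 tested genes of iron, heme, vitamin D and calcium, 1 was called above chow, against 0.261% of all tested genes. Another 6 were within 2-fold, against 72.6% of all tested genes, and 11 were not placed, with a median of 0.61. Slc39a4, the zinc importer of enterocytes (chr15:76612383-76617384), had 87.5, 90.1 and 101 CPM in Chow and 164, 151 and 164 CPM in HFD PCN (log2 difference 0.77 ± 0.12, adjusted p = 0.0258). Slc11a2, which takes up iron, had 119, 111 and 55.1 CPM in Chow and 654, 1108 and 230.1 CPM in HFD PCN (log2 difference 2.80 ± 0.70, adjusted p = 0.265). Its levels also differed within the other groups, with 393, 504 and 57.5 CPM in HFD and 86.9, 102 and 327 CPM in HFD Vehicle. Cybrd1, the ferric reductase of the brush border, had 9.77, 13.2 and 1.34 CPM in Chow and 64.3, 77.9 and 22.8 CPM in HFD PCN (log2 difference 2.85 ± 0.95, adjusted p = 0.374). Chow 19 was the lowest Chow library in both genes. The call of Slc39a4 was lost without any library but HFD PCN 27 (adjusted p over all alternatives of up to 0.823).

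Digestive and absorptive genes were largely within 2-fold of chow, as were all tested genes. Of 25 tested genes that digest peptides or carry amino acids, 21 were within 2-fold, against 72.6% of all tested genes. The other 4 were not placed and edgeR called none, with a median of -0.11. An unadjusted p under 0.05 was found for 1 higher and 4 lower genes, against 11.8% of all tested genes either way. The alternatives called 0 to 1 higher and 0 to 2 lower. Enpep, a brush border aminopeptidase, had 1288, 935 and 1580.3 CPM in Chow, 392, 369 and 819 CPM in HFD, 706, 822 and 1046 CPM in HFD Vehicle and 1572, 1357 and 912 CPM in HFD PCN. HFD lay below chow, HFD Vehicle overlapped its lower end, and HFD PCN overlapped chow with a 95% interval of -0.52 to 0.52. Naaladl1, another peptidase, had 138, 143 and 184 CPM in Chow, 34.8, 36.3 and 83.9 CPM in HFD, 59.9, 76.9 and 79.3 CPM in HFD Vehicle and 162, 124 and 144 CPM in HFD PCN (interval -0.46 to 0.19). Slc6a20a, a proline carrier, had 334, 232 and 378 CPM in Chow, 104, 190.2 and 165 CPM in HFD, 177, 219 and 227 CPM in HFD Vehicle and 324, 332 and 248 CPM in HFD PCN (interval -0.49 to 0.33). In these 2 genes HFD and HFD Vehicle lay below every Chow library and HFD PCN did not. Of the 25 genes, 7 had both groups below every Chow library, and 3 of those 7 were within 2-fold of chow in HFD PCN. Over all tested genes 232 of 391 were. All comparisons with chow share the same 3 Chow libraries, and no test was made between the high-fat groups here.

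Of 20 tested genes of sugar digestion and transport 14 were within 2-fold, near the 72.6% of all tested genes. Pfkl alone was called above, against 0.261% of all tested genes, and 5 were not placed, with a median of 0.26. The glucose carrier Slc5a1 (log2 difference 0.57 ± 0.15) and the maltase Mgam (0.53 ± 0.19) were within 2-fold, and sucrase Sis (0.64 ± 0.18) and lactase Lct (0.66 ± 0.16) were not placed. 2 genes of the epithelial surface and junctions, chosen after their values were seen, were called. Muc3, a membrane mucin of the brush border, had 1069.7, 1024 and 1042 CPM in Chow and 2429, 2774 and 2008 CPM in HFD PCN (log2 difference 1.18 ± 0.17, adjusted p = 0.0174). Cldn2, a tight junction protein that lets cations and water pass, had 30.7, 39.9 and 34.3 CPM in Chow and 105, 101 and 63.9 CPM in HFD PCN (log2 difference 1.35 ± 0.19, adjusted p = 0.0176). Neither overlapped Chow, but HFD 30 for Muc3, and HFD 4, HFD 38 and HFD Vehicle 55 for Cldn2, reached into the PCN range. Both calls were lost without Chow 8, Chow 19, HFD PCN 5 or HFD PCN 11 (adjusted p over all alternatives of up to 0.741 and 0.827), and that of Muc3 also without Chow 17.

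**Figure D3:**
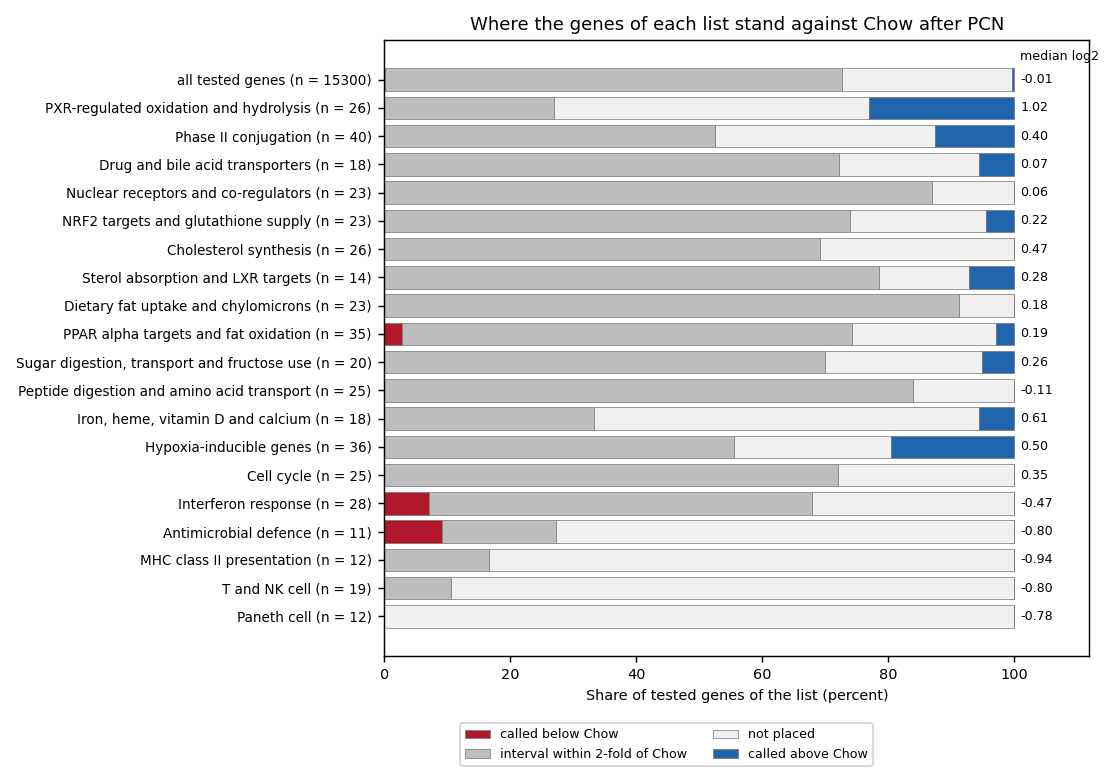
For all tested genes and the gene lists plotted, the share of tested genes (horizontal axis, percent, n in brackets) called below chow (red), within 2-fold (dark grey), not placed (light grey) or called above chow (blue), with the list's median log2 difference at the right. Blue is widest for PXR-regulated oxidation and hydrolysis (6 of 26) and hypoxia-inducible genes (7 of 36, a list chosen after the values were seen), red appears within the lists plotted for antimicrobial defence (1 of 11), the interferon response (2 of 28) and PPAR alpha targets and fat oxidation (1 of 35), and all 12 Paneth cell genes were not placed.

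The 12 genes called below chow were led by few-count Aqp8, described further on, and by Reg3g and Apol10a. Reg3g, a secreted lectin that kills Gram-positive bacteria (chr6:78466269-78468872), had 113, 70.9 and 177 CPM in Chow and 7.74, 6.77 and 10.3 CPM in HFD PCN. Every PCN library was far under the lowest Chow library, a 14.9-fold difference (log2 difference -3.90 ± 0.37, adjusted p = 0.0174). HFD at 23.8, 11.4 and 28.9 and HFD Vehicle at 11.1, 36.2 and 45.1 CPM lay below chow too. Reg3b, its near copy with which it can share reads, had 663, 336 and 1006 CPM in Chow and 212, 28.5 and 22.97 CPM in HFD PCN and was not called (log2 difference -2.94 ± 1.13, adjusted p = 0.431). Of 11 tested antimicrobial genes Reg3g alone was called below chow (0.0784% of all genes were), 2 were within 2-fold and 8 were not placed, with a median of -0.80. The call of Reg3g was lost without Chow 8, HFD PCN 5 or HFD PCN 11 and with no filter on low counts (adjusted p over all alternatives of up to 0.103).

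Apol10a, a member of the apolipoprotein L family of immune-induced proteins (chr15:77477047-77491069), had 96.7, 51.2 and 68.2 CPM in Chow and 11.8, 17.2 and 9.92 CPM in HFD PCN, a 5.61-fold difference (log2 difference -2.49 ± 0.28, adjusted p = 0.0174). HFD stood at 19.3, 19.2 and 21.4 and HFD Vehicle at 18.5, 18.3 and 19.1 CPM, so that all 9 high-fat libraries lay below the 3 Chow libraries, and the PCN libraries were the lowest. Of 7 tested genes of the family it alone was called, against 0.0784% of all tested genes called below, with a family median of -0.77. The call was lost without Chow 19 or HFD PCN 5 (adjusted p over all alternatives of up to 0.0756).

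The interferon-induced genes Igtp and Zbp1 fell below chow, and most of their list had negative differences. Of 28 tested genes 2 were called below, against 0.0784% of all genes, and none was called above. Another 17 were within 2-fold, against 72.6% of all tested genes, and 9 were not placed. The median log2 difference was -0.47, and 25 of 28 were negative. Igtp, a GTPase of intracellular defence (chr11:58199556-58207591), had 15.2, 19.04 and 18.2 CPM in Chow and 8.79, 5.44 and 8.15 CPM in HFD PCN (log2 difference -1.25 ± 0.21, adjusted p = 0.0313). Zbp1, a sensor of viral nucleic acid (chr2:173206612-173218923), had 15.96, 9.95 and 12.7 CPM in Chow and 6.38, 4.82 and 4.71 CPM in HFD PCN (log2 difference -1.29 ± 0.23, adjusted p = 0.0445). HFD stood at 7.86, 21.4 and 10.9 CPM for Igtp and 3.59, 22.5 and 8.00 CPM for Zbp1, with HFD 30 above the Chow range in both, while HFD Vehicle lay below it. Outside the list, Gbp2b, another interferon-induced GTPase, had 10.2, 7.96 and 8.80 CPM in Chow and 2.81, 3.00 and 2.75 CPM in HFD PCN (log2 difference -1.67 ± 0.22, adjusted p = 0.0174). Nlrc5, the activator of MHC class I genes, had 28.5, 25.01 and 23.1 CPM in Chow and 11.5, 10.2 and 15.9 CPM in HFD PCN (log2 difference -1.05 ± 0.19, adjusted p = 0.0493). None of the 4 overlapped Chow. Tap1, the peptide pump that feeds MHC class I, was not called (log2 difference -0.82 ± 0.15, adjusted p = 0.0562), and Irf1 (-0.06 ± 0.15) was within 2-fold.

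Each of the calls of Igtp, Zbp1, Gbp2b and Nlrc5 was lost without Chow 8, Chow 19, HFD PCN 5 or HFD PCN 11, with adjusted p over all alternatives of up to 0.614, 0.78, 0.0927 and 0.343. Markers of lymphocytes had negative differences as well. Of 19 tested T and NK cell markers 18 were negative with a median of -0.80, and edgeR called none. An unadjusted p under 0.05 was found for 9 of these markers, all lower, against 11.8% of all tested genes either way. The alternatives called 0 to 4 of the markers lower. The T and NK cell sum over 21 listed genes was 154 to 253 CPM in Chow and 101 to 141 CPM in HFD PCN. The groups did not overlap, and no marker was at 0 in all libraries. This sum was 52.7 to 130 CPM in HFD and 21.7 to 111 CPM in HFD Vehicle, also below Chow. MHC class II genes summed to 653 to 1498 CPM in Chow and 359 to 618 CPM in HFD PCN, with a median of -0.94 over 12 tested genes. Their sum was 428 to 714 CPM in HFD and 195 to 573 CPM in HFD Vehicle. Low sums were thus not particular to HFD PCN. Ccl5, a T cell chemokine, had 10.1, 7.96 and 5.77 CPM in Chow and 3.57, 2.93 and 3.34 CPM in HFD PCN (log2 difference -1.28 ± 0.26, adjusted p = 0.0714), and Cd74, the MHC class II chaperone, had 676, 446 and 256 and 177, 88.8 and 180.3 CPM (log2 difference -1.65 ± 0.45, adjusted p = 0.267). The part of these cells in the lower interferon and Apol values was not tested.

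The start windows of 3 genes called below chow are shown because they hold the core of the interferon-stimulated response element, GAAANNGAAA, marked in capitals on either strand (RefSeq, GRCm38.p6, all on the plus strand).
Apol10a (chr15:77476797-77477096): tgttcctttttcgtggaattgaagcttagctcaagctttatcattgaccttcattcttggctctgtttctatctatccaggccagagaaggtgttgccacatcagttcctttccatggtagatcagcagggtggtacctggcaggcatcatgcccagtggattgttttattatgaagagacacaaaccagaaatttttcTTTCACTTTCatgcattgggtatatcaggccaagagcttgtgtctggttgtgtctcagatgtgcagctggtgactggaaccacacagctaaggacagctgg
Gbp2b (chr3:142594597-142594896): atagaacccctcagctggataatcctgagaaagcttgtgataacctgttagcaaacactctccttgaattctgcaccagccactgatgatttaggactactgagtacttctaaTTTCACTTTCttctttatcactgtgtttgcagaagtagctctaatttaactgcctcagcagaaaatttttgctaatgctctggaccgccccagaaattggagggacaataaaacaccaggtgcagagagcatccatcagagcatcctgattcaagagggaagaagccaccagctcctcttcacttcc
Igtp (chr11:58199306-58199605): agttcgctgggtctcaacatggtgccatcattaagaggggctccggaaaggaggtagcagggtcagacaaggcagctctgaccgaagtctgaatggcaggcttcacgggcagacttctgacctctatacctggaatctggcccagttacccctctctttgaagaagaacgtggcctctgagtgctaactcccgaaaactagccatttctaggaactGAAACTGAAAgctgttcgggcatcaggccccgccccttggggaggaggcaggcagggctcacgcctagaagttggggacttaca
The match starts at -51 in Apol10a, at -137 in Gbp2b and at -34 in Igtp, in the first 2 as the reverse complement. It stands in 3 of the 7 genes called below chow that have a window, in 2 of the 32 called above (Gstm6 and Vldlr), and in 3.90% of tested genes. With 7 genes this is a description only.

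**Figure D4:**
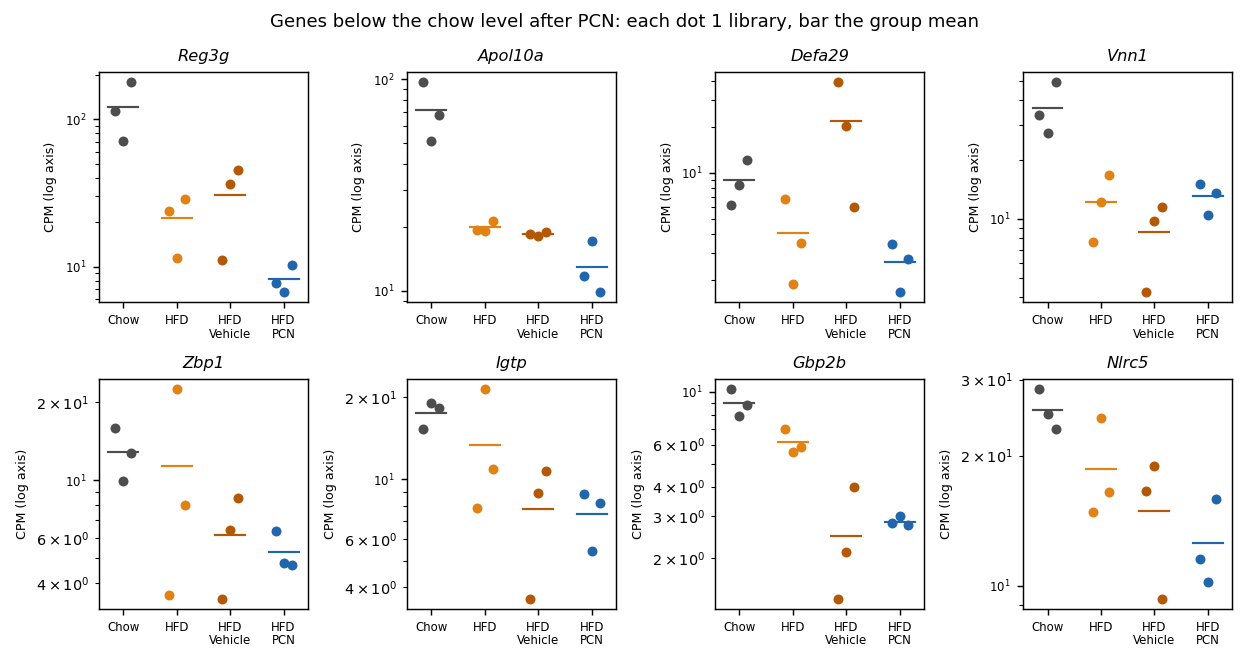
CPM (log axis) of 8 genes called below chow, in each library of the 4 groups (dots, with a bar at the group mean). The HFD PCN dots lie under all Chow dots in each panel; in Reg3g, Apol10a, Vnn1 and Gbp2b so do HFD and HFD Vehicle, while in Defa29 the HFD Vehicle dots reach above Chow.

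Aqp8, a water channel of epithelia (chr7:123462291-123468004), had the largest fall, on few counts. It had 56, 47 and 61 counts in Chow and 1, 0 and 2 counts in HFD PCN, or 6.67, 6.68 and 3.70 against 0.0502, 0 and 0.196 CPM. HFD had 1.12, 2.35 and 0.8 and HFD Vehicle 0.143, 0.64 and 0 CPM, both below chow. Pooled, the PCN level was 1.30% of the Chow level, with an exact 95% interval of 0.265% to 3.86% that covers counting error only (edgeR adjusted p = 0.00288). Ahrr, the repressor of the aryl hydrocarbon receptor, was chosen after its values were seen. It also rests on few counts, a mean of 19.3 over the 6 libraries. Ahrr had 3.45, 3.13 and 2.43 CPM in Chow, 0.898, 0.997 and 1.09 CPM in HFD, 0.143, 0.801 and 1.19 CPM in HFD Vehicle and 0.703, 0.419 and 0.491 CPM in HFD PCN (log2 difference -2.43 ± 0.37, adjusted p = 0.0248). It too was below chow in all 3 high-fat groups. Its call was lost when any library but HFD PCN 27 was left out (adjusted p of up to 0.138). Cyp1b1, a target of that receptor, was not called (log2 difference -1.20 ± 0.31, adjusted p = 0.155), and Ahr itself was within 2-fold (0.24 ± 0.17).

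Defa29, an alpha-defensin, was below chow, at 6.19, 8.38 and 12.2 CPM in Chow and 3.42, 1.67 and 2.75 CPM in HFD PCN (log2 difference -1.79 ± 0.32, adjusted p = 0.0445), whereas HFD Vehicle had 39.02, 20.2 and 5.96 CPM. Defensins are near copies, so the value of 1 gene is uncertain, and the call was lost when any library but HFD PCN 27 was left out (adjusted p of up to 0.698). All 12 tested Paneth cell genes, which mark the cells that secrete defensins, were negative, with a median of -0.78, and edgeR called none and placed none. Of these 12 genes, 4 had an unadjusted p under 0.05, against 11.8% of all tested genes, and the alternatives called 0. Their sum was 413 to 894 CPM in Chow and 326 to 695 CPM in HFD PCN, which overlap. Its part in the value of Defa29 was not tested.

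Other cell types were compared through their markers. Of 17 tested pancreatic acinar genes all were negative, with a median of -2.10, and edgeR called none. Of these, 14 had an unadjusted p under 0.05, against 11.8% of all tested genes, and the alternatives called 0 to 7. Without Zg16, which goblet cells also make, their sum was 66.0 to 172 CPM in Chow and 9.63 to 38.7 CPM in HFD PCN. It was 16.5 to 39.6 CPM in HFD and 23.6 to 133 CPM in HFD Vehicle. Cela1, an elastase, had 6.07, 14.2 and 10.1 CPM in Chow and 2.41, 1.47 and 3.63 CPM in HFD PCN (log2 difference -2.05 ± 0.37, adjusted p = 0.0562). All 16 tested enteroendocrine genes were positive, with a median of 0.44. None was called by edgeR, and the alternatives called 0 to 3. Of the 16, 5 had an unadjusted p under 0.05, against 11.8% of all tested genes. The marker sum was 211 to 236 CPM in Chow and 288 to 383 CPM in HFD PCN. It was 231 to 259 CPM in HFD and 291 to 512 CPM in HFD Vehicle. Gip, the incretin hormone of the upper gut, had 36.2, 41.6 and 37.3 CPM in Chow, 140.0, 60.5 and 67.6 CPM in HFD Vehicle and 66.2, 56.4 and 59.8 CPM in HFD PCN (log2 difference 0.65 ± 0.13, adjusted p = 0.0672). Its interval of 0.36 to 0.93 stayed within 2-fold. All 25 cell cycle genes were positive (median 0.35), 18 of them within 2-fold, near the 72.6% of all tested genes. None was called by edgeR, and the alternatives called 0 to 1. Of the 25, 9 had an unadjusted p under 0.05, against 11.8% of all tested genes. Goblet cell genes (12 of 13) and smooth muscle genes (13 of 13) were within 2-fold of chow, against the same 72.6%.

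4 further genes called above chow had no overlap with it, and all but Fam84a were chosen after their values were seen. Fam84a had 24.2, 37.8 and 28.9 CPM in Chow and 114, 95.1 and 74.4 CPM in HFD PCN (log2 difference 1.63 ± 0.20, adjusted p = 0.0147). Rbbp8, a DNA end resection factor, had 36.9, 30.98 and 36.4 CPM in Chow and 80.6, 128 and 79.4 CPM in HFD PCN (log2 difference 1.44 ± 0.20, adjusted p = 0.0174). Gpr17, a G protein-coupled receptor, had 8.10, 7.25 and 5.40 CPM in Chow, 10.3, 30.7 and 16.2 CPM in HFD, 24.7, 55.8 and 10.1 CPM in HFD Vehicle and 19.5, 22.1 and 19.5 CPM in HFD PCN (log2 difference 1.56 ± 0.20, adjusted p = 0.0148). Neu3, a membrane sialidase, had 8.22, 7.82 and 5.83 CPM in Chow and 19.7, 20.9 and 14.3 CPM in HFD PCN (log2 difference 1.33 ± 0.21, adjusted p = 0.0284). For Gpr17 all 9 high-fat libraries were above all Chow libraries. Every one of the 4 calls was lost without Chow 19, with adjusted p over all alternatives of up to 0.511, 0.0882, 0.689 and 0.186. Fam84a and Gpr17 were lost also without HFD PCN 11, Rbbp8 without Chow 8 or Chow 17, and Neu3 without any library but HFD PCN 27.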

How the data were processed

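RNA from duodenum was sequenced in 12 libraries, 4 groups of 3. Raw counts of reads per gene were deposited by the authors in 2 tables, Chow with HFD (28066 genes) and HFD Vehicle with HFD PCN (28731 genes), beside log2 fold changes and p-values of their own comparisons, which the authors' deposited tables give and which are not used here. HISAT2, HTSeq and DESeq2 with GRCm38 (mm10) were used, per the submitters' processing notes. For versions, annotation release, strand setting and read filters nothing is given in the sources used here. In both files the annotation columns' header is shifted by 1 column, and was read accordingly.

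Counts of both tables were joined by Ensembl identifier. The 26121 genes in both were kept, and a gene missing from 1 table was taken as not measured. Symbols came from GENCODE M21 (26081 genes). The 6 libraries were fitted with edgeR 4.0.16 in R 4.3.3 (filterByExpr, TMM, robust quasi-likelihood F-test, Benjamini-Hochberg adjustment over 15300 genes, called under 0.05). Standard errors, the log2 difference over the root of the F statistic, are approximate. The 95% intervals come from them. Levels are CPM after TMM over all 12 libraries. Counting error is the only error an interval on pooled counts covers. In simulated data with the 15300 genes, edgeR recovered 62 of 100 genes changed 2-fold and 93 of 100 changed 4-fold, with 14 false calls. The changed genes were drawn above a minimum CPM, and no shift shared by many genes of a library was simulated. These figures may therefore not hold for the real libraries.

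Named genes were up to 12 called genes each way with the largest change among those without overlap that averaged at least 20 counts, up to 4 called members of each list or its 2 with the smallest p, and a fixed set of PXR, lipid and defence genes. The comparison, lists and members were chosen with earlier results of these data known, and the hypoxia list and further genes after these values were seen. Motifs were searched in RefSeq start windows (GRCm38.p6), where 32 of the 40 genes called above and 7 of the 12 below had a window. Alternatives were DESeq2 1.42.0, limma 3.58.1 (voom, with and without quality weights), other scalings and filters, all 12 libraries in 1 fit, and leaving out each library. Within each group all pairs of libraries differed by more than counting noise (chi-square per degree of freedom 27.4 to 56.7). Pairs across groups gave 24.3 to 80.6. Each library counted as 1 replicate, though such a spread does not show that they came from separate animals.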

Additional observations from a re-analysis of the deposited data

How the results depend on the processing

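The 52 calls and their directions were recomputed under 16 alternatives, and each gene kept its direction in all of them. This says little, because the HFD PCN libraries of each called gene lay outside the Chow range. A direction could therefore hardly change. The number of genes called varied widely. DESeq2 called 265 genes (177 above chow, 88 below, all 52 among them), with 10431 within 2-fold. With voom quality weights 291 were called (180 above, 111 below, all 52 among them), where HFD PCN 27 had the lowest weight at 0.524 and Chow 8 the highest at 1.82. Without a filter on low counts 261 were called (182 above, 79 below, 50 of the 52 among them). With all 12 libraries in 1 fit 15 were called (12 above, 3 below, 11 of the 52 among them). Scaling by library totals alone called 31 (23 above, 8 below) and moved the median of all genes by -0.12. Genes above chow made up 76.9% of the calls in the fit reported, 66.8% in DESeq2, 61.9% with quality weights and 69.7% without the filter. Limma-voom without weights called 50, DESeq2 size factors in edgeR 52, upper-quartile scaling 46, a filter of 20 counts 48, and the fit without ribosomal RNA-like and mitochondrial genes 51. Leaving out 1 library at a time gave 8 to 349 calls, 4 to 222 above chow, 2 to 127 below and 9596 to 10609 within 2-fold. The share above chow was lowest without Chow 19, at 44.4%. Of the 52 genes, 48 lost their call under at least 1 alternative. The cause was not tested. No paired analysis was possible because the groups share no replicate number. Depth limits genes such as Aqp8, Ahrr, Ankrd37 and Gm45909, which rest on few counts.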
